A study of Macaca fascicularis with 5 samples.

Results

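The genes described here are 9 inhibitors of MAP kinase signalling: the phosphatases DUSP1, DUSP4, DUSP5 and DUSP6, the Sprouty genes SPRY1, SPRY2 and SPRY4, and the Sprouty-related genes SPRED1 and SPRED2. They were chosen by symbol, for their function, and all 9 of the 20576 gene symbols in the deposited table were found, as 16 of its 62655 transcripts. Each gene total is the sum of its transcripts' estimated counts. All 9 passed the filter on low counts, which kept 14317 genes.

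MAP kinase phosphatases remove phosphate groups from both the threonine and the tyrosine that activate a MAP kinase (ERK, JNK or p38). Sprouty and Spred proteins act further upstream, between receptor tyrosine kinases and the RAS and RAF proteins that lead to ERK. Many of these genes are themselves switched on by ERK, so that they form a negative feedback, and in neurons several respond to electrical activity. The dorsal lateral geniculate nucleus (dLGN) is the thalamic relay between the retina and the visual cortex, and in primates its layers each receive one eye.

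RNA was sequenced from the dLGN of 5 cynomolgus monkeys (Macaca fascicularis), with 1 library per animal. The control group holds Control-307, Control-331 and Control-317, from untreated animals, and their values are given in this order. The deprived group holds Deprivated-316 and Deprivated-326, from animals with monocular visual deprivation, in which the lids of the left eye were sutured. The labels give an age of 3 months for all 5 animals and a suture from 1 to 3 months of age, whereas the paper's methods place collection 3 months after the suture. Both deprived libraries are from the left dLGN, the right one having failed a test of RNA quality, and this nucleus also holds layers of the open eye. By their titles Control-317 is a left library and Control-307 and Control-331 are right libraries, but their descriptions say that both sides were mixed.

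Libraries held 7391844 to 12966019 estimated counts. A few features of the libraries bear on every value below. For one, cell type markers differed between them. Over 10 markers of thalamic relay neurons the summed level was 200.01 CPM (counts per 1000000 counts, after TMM scaling of the library totals) in Control-307, 323 in Control-331, 608 and 1169 in Deprivated-316 and Deprivated-326 and 2052 in Control-317, with all 10 detected in every library. Over 10 markers of striatal spiny neurons, a cell type outside the dLGN, the sum in CPM was 6892 for Control-307, 6245 for Control-331, 1948 and 1600 for the deprived libraries and 387 for Control-317. For 10 markers of excitatory neurons of cortex and hippocampus it was 581 to 724 CPM in the control libraries against 2575 and 1634 CPM in the deprived ones. Most of each sum was CAMK2A, with 367 to 495 CPM in control and 1784 and 1159 CPM in deprived libraries. NRGN and CUX2 overlapped between the groups, and the rest were higher in both deprived libraries than in each control library. Of the 10 markers, SLC17A7 and EMX1 were at 0 in Control-307, and SLC17A7, NEUROD2, EMX1 and FEZF2 were at 0 in Control-317. Besides, choroid plexus markers summed to 1094 CPM in Control-317 and to 16.1 to 126 CPM elsewhere. Last, group means in the paper's supplement follow another division of the libraries. Of the 10 ways to split 5 libraries into 3 and 2, the one placing Control-317 with Deprivated-326 matched the printed means for 310 of 310 legible transcripts, and the division by the labels matched 20. Groups were kept as labelled, and the values with Control-317 and Deprivated-316 exchanged are given where they bear on a gene. In bulk RNA, fewer cells of a type and less RNA per cell cannot be told apart.

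Per transcript length, SPRED1 and SPRY2 had the highest mean levels of the 9 genes, at 17.3 and 16.0 FPKM (fragments per kilobase of transcript, scaled to depth) over the 5 libraries. DUSP1 and DUSP6 followed with 10.1 and 9.41 FPKM. SPRY4, SPRED2, SPRY1 and DUSP4 had 5.49, 4.94, 4.34 and 3.24 FPKM, and DUSP5 was the lowest with 2.30 FPKM. Each pair of neighbours in this order overlapped in range over the libraries. Only DUSP6 lay above its lower neighbour, SPRY4, in all 5 libraries.

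**Figure D1:**
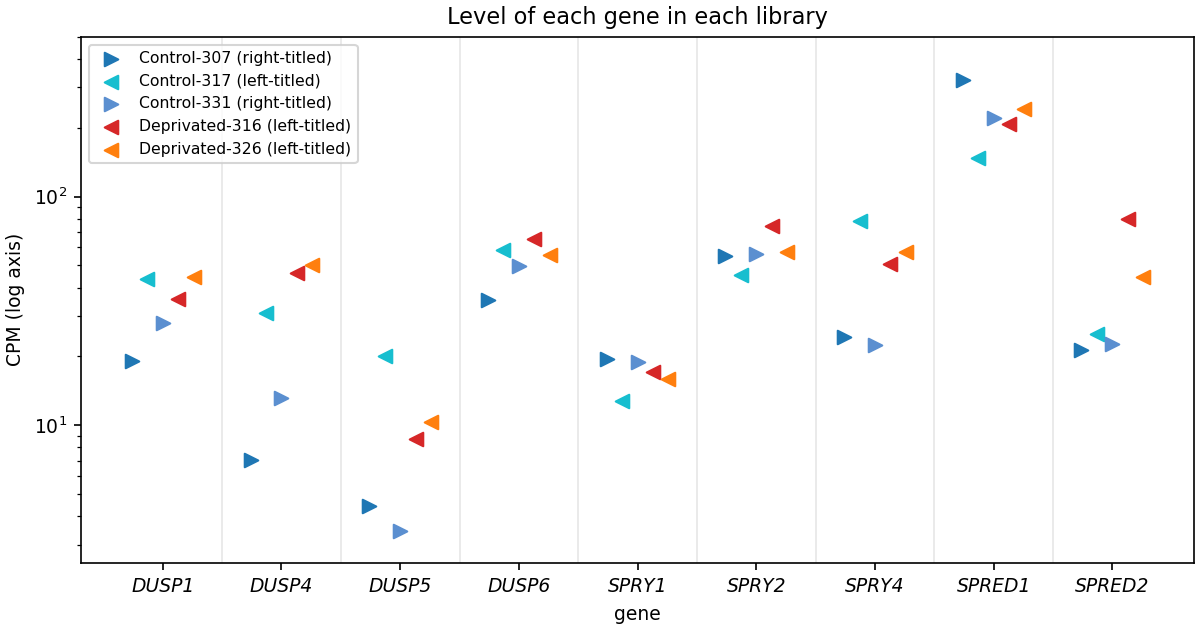
Level of each of the 9 genes in each library, in CPM on a log axis, with right-titled libraries as triangles that point right and left-titled ones as triangles that point left. DUSP4 ran from 7.04 CPM in Control-307 to 50.4 CPM in Deprivated-326, and SPRED2 was above 44 CPM in the deprived libraries only.

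Between the deprived and the control group, SPRED2 and DUSP4 had the largest differences in mean among the 9 genes, each upward, and the other 7 had log2 fold changes between -0.04 and 0.40. No gene passed edgeR's quasi-likelihood test, which called 0 of the 9 genes and 0% of all 14317 genes at a Benjamini-Hochberg adjusted p under 0.05. At an unadjusted p under 0.05 it gave 1 of the 9 genes, SPRED2, beside 9.76% of all genes. DESeq2 called 1 of the 9, also SPRED2, beside 2.14% of all genes, and edgeR's exact test called the same gene beside 1.59%. Limma on log2(FPKM + 1) called 0 of the 9 beside 0.00698% of all genes. With Control-317 and Deprivated-316 exchanged, edgeR called 0 of the 9 beside 0% and DESeq2 0 of the 9 beside 0.704%. The log2 fold change was above 0 for 7 of the 9 genes and for 44.9% of all genes, with a median of 0.34 over the 9 and -0.06 over all. It was above 0 for 7 of the 9 beside 48% of all without Control-317, for 6 beside 49.8% with the side in the titles as a covariate, and for 5 beside 49.1% after the exchange. The CPM of both groups did not overlap for SPRED2, DUSP4 and SPRY2, 3 of the 9, and for 30.8% of all genes.

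SPRED2 encodes a membrane-bound protein that binds neurofibromin, the product of NF1, and brings it to RAS. Its level was 21.4, 22.8 and 25.0 CPM in Control-307, Control-331 and Control-317, and 79.9 and 44.6 CPM in Deprivated-316 and Deprivated-326. The 3 control libraries lay close together, at 23.1 ± 1.79 CPM (SD, n = 3), and both deprived libraries were above them. The log2 fold change was 1.43 (standard error 0.29, 95% interval 0.70 to 2.17, edgeR quasi-likelihood adjusted p = 0.306). The adjusted p was 0.0123 in DESeq2 and 0.0187 in edgeR's exact test. On simulated data both of these tests made more false calls than their threshold allows. Those data took each gene's spread from edgeR and held no differences in cell type between libraries, unlike the libraries here. With 1 library left out, the log2 fold change was 0.954 without Deprivated-316 (edgeR adjusted p = 0.999981), 1.81 without Deprivated-326 (0.579), 1.38 without Control-307 (0.661) and 1.42 without Control-331 (0.844). Only without Control-317, at 1.50, did it pass edgeR's quasi-likelihood test (adjusted p = 0.0446). In a fit with side by title as a covariate the log2 fold change was 1.32 (95% interval 0.33 to 2.31, edgeR adjusted p = 0.102). Control-317 is the only left-titled control library, so this fit takes a lone library to vary like the others, here and for the genes below. With Control-317 and Deprivated-316 exchanged it turned to -0.25 (95% interval -1.87 to 1.37, edgeR adjusted p = 0.932).

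Markers of cortical and hippocampal excitatory neurons were ordered between the deprived libraries as SPRED2 was. Their mean was 2.04, 1.90 and 1.32 log2 CPM in Control-307, Control-331 and Control-317 and 6.26 and 5.08 log2 CPM in Deprivated-316 and Deprivated-326. The log2 fold change was above 0 for 9 of 9 tested markers, beside 44.9% of all genes. Oligodendrocyte markers averaged 9.46 to 10.1 log2 CPM in control and 8.71 and 9.57 log2 CPM in deprived libraries. The part of these cell types in the difference of SPRED2 was not tested.

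SPRED1, the close relative of SPRED2 that acts on the same pathway, had 323, 222 and 148 CPM in Control-307, Control-331 and Control-317, and 208 and 242 CPM in Deprivated-316 and Deprivated-326. Both deprived libraries lay inside the range of the control libraries. The log2 fold change was -0.04 (standard error 0.36, 95% interval -0.94 to 0.86, edgeR adjusted p = 0.983), so that a change by more than about 0.94 on the log2 scale in either direction lay outside the interval. With side as a covariate it turned to 0.61 (95% interval -0.08 to 1.296, edgeR adjusted p = 0.211). The level of SPRED1 per length was 8.81, 5.73 and 3.45 times that of SPRED2 in the control libraries, and 1.53 and 3.20 times in the deprived ones.

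DUSP4, a nuclear phosphatase of ERK and JNK, had the largest ratio of highest to lowest CPM among the 9 genes, 7.16. It had 7.04, 13.1 and 31.1 CPM in Control-307, Control-331 and Control-317, and 46.3 and 50.4 CPM in Deprivated-316 and Deprivated-326. The deprived libraries lay above all control libraries, and Control-317 lay closer to them than to Control-307. The log2 fold change was 1.50 (standard error 0.61, 95% interval -0.02 to 3.02, edgeR adjusted p = 0.518). Leaving out Control-317 moved it most, to a log2 fold change of 2.26 with an edgeR adjusted p of 0.0238. Without Control-307 the log2 fold change was 1.13, and without Control-331 it was 1.34. With side as a covariate it was 0.64 (95% interval -0.32 to 1.59, edgeR adjusted p = 0.313), and with Control-317 and Deprivated-316 exchanged it was 0.88.

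DUSP1, a nuclear phosphatase of p38, JNK and ERK that is an immediate early gene, had 19.1, 27.9 and 43.4 CPM in Control-307, Control-331 and Control-317. The deprived libraries had 35.5 and 44.4 CPM. Control-317 lay between them, so the groups overlapped, and the log2 fold change was 0.40 (standard error 0.38, edgeR adjusted p = 0.765). It was 0.16 without Control-307, 0.76 without Control-317 (edgeR adjusted p = 0.108) and -0.12 with side as a covariate.

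DUSP5, a nuclear phosphatase specific to ERK, was dominated by 1 library. It had 20.2 CPM in Control-317, but only 4.45 CPM in Control-307 and 3.44 CPM in Control-331, and 8.72 and 10.4 CPM in Deprivated-316 and Deprivated-326. The deprived libraries lay above the right-titled control libraries and below Control-317. In the fit of all 5 libraries DUSP5 stood at 0.02 on the log2 scale (standard error 0.83, 95% interval -2.05 to 2.097, edgeR adjusted p = 0.995). Its direction depended on the libraries compared. The value was 1.27 without Control-317 (edgeR adjusted p = 0.0697) and -1.08 with side as a covariate (95% interval -1.89 to -0.27, edgeR adjusted p = 0.102). With Control-317 and Deprivated-316 exchanged it was 1.47 (95% interval 0.20 to 2.75, edgeR adjusted p = 0.697).

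DUSP6, the cytoplasmic phosphatase of ERK, varied less. It had 35.2, 49.7 and 58.5 CPM in Control-307, Control-331 and Control-317 and 65.0 and 55.7 CPM in Deprivated-316 and Deprivated-326, so that Control-317 lay between the deprived libraries. For DUSP6 the log2 fold change was 0.34 (standard error 0.27, 95% interval -0.35 to 1.02, edgeR adjusted p = 0.726).

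The Sprouty genes encode inhibitors of receptor tyrosine kinase signalling that gather at the membrane after a growth factor has bound. SPRY4 had 24.3, 22.5 and 78.0 CPM in the control libraries, of which the last is Control-317, and 50.8 and 57.3 CPM in Deprivated-316 and Deprivated-326. As with DUSP5, the deprived libraries lay between Control-317 above and the right-titled libraries below. Its log2 fold change was 0.38 (standard error 0.60, 95% interval -1.13 to 1.88, edgeR adjusted p = 0.884). Without Control-317 it was 1.21 and passed the test (edgeR adjusted p = 0.0219), and with side as a covariate it turned to -0.53 (95% interval -0.995 to -0.06, edgeR adjusted p = 0.136). With Control-317 and Deprivated-316 exchanged it was 1.06 (95% interval 0.04 to 2.08, edgeR adjusted p = 0.698).

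SPRY2 was the most even of the Sprouty genes in its control libraries, with 54.8, 56.1 and 45.5 CPM in Control-307, Control-331 and Control-317. Deprivated-316 had 74.3 CPM and Deprivated-326 had 57.2 CPM, just above Control-331. The groups did not overlap, but the log2 fold change was only 0.33 (standard error 0.22, 95% interval -0.21 to 0.88, edgeR adjusted p = 0.659), and it turned to -0.27 with Control-317 and Deprivated-316 exchanged.

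SPRY1 differed least over the libraries. It had 19.5, 18.8 and 12.7 CPM in Control-307, Control-331 and Control-317 and 17.2 and 16.0 CPM in Deprivated-316 and Deprivated-326. Both deprived libraries lay within the control range, and the log2 fold change was -0.04 (standard error 0.28, 95% interval -0.74 to 0.66, edgeR adjusted p = 0.976).

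**Figure D2:**
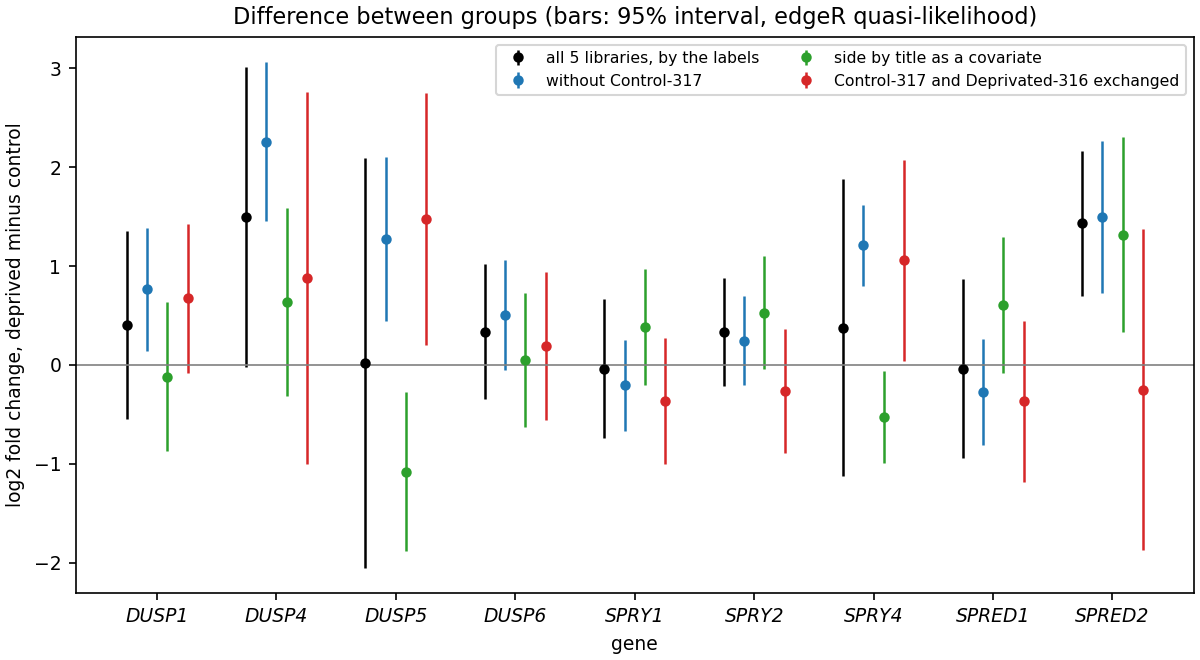
Log2 fold change (deprived minus control) of each gene in edgeR's quasi-likelihood fit, with bars for the 95% interval, under the labels with all 5 libraries, without Control-317, with side by title as a covariate, and with Control-317 and Deprivated-316 exchanged. SPRED2 lay at 1.32 to 1.50 in the 3 plotted fits by the labels and at -0.25 after the exchange (0.954 without Deprivated-316, which is not plotted), while DUSP5 ran from -1.08 to 1.47.

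Without Control-317 edgeR's quasi-likelihood test called 3 of the 9 genes, DUSP4, SPRY4 and SPRED2, all upward, beside 10.1% of all genes tested. The control libraries that remain in that fit are both right-titled and the deprived ones both left-titled, so condition and side cannot be told apart there. With side as a covariate, where the difference rests on Control-317 against both deprived libraries, it called 0 of the 9 genes beside 5.43% of all. Of the 9, 3 had an unadjusted p under 0.05 in that fit, SPRED2 upward and DUSP5 and SPRY4 downward, beside 29.6% of all. DESeq2 with the same covariate called SPRED2 alone of the 9 (adjusted p = 0.0298), beside 13.3% of all.

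The libraries divided more often by the side in their titles than by condition. For 7 of the 9 genes, all but SPRY2 and SPRED1, the CPM of the 3 left-titled libraries did not overlap that of the 2 right-titled ones, which was so for 44.9% of all genes. Of these 7, 6 were higher in the left-titled libraries and SPRY1 was lower. The mean CPM of the left-titled libraries was 4.23 times that of the right-titled ones for DUSP4, 3.32 times for DUSP5, 2.65 times for SPRY4, 2.26 times for SPRED2, 1.75 times for DUSP1 and 1.41 times for DUSP6. This comparison was added after the values had been seen.

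Fitted by side, DUSP4 had a log2 fold change (left minus right) of 2.07 (95% interval 1.13 to 3.02) and SPRY4 one of 1.41 (95% interval 0.78 to 2.04), with edgeR adjusted p-values of 0.0859 and 0.0855. DUSP5 had 1.73 (95% interval 0.56 to 2.91, edgeR adjusted p = 0.143) and DUSP1 had 0.80 (edgeR adjusted p = 0.165). By edgeR's quasi-likelihood test 0 of the 9 genes passed, beside 0.391% of all genes, and 4 had an unadjusted p under 0.05, beside 21.2%. DESeq2 called DUSP4, DUSP5 and SPRY4, 3 of the 9, beside 11% of all. Both deprived libraries are left-titled, so that this comparison and that by condition share most of their libraries.

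The means over relay and striatal markers also divided by side. The mean over thalamic relay markers was 3.55 and 4.43 log2 CPM in the right-titled Control-307 and Control-331, and 5.97, 5.01 and 5.65 log2 CPM in the left-titled Control-317, Deprivated-316 and Deprivated-326. The mean over striatal markers was 8.64 and 8.50 log2 CPM in the former and 4.38, 6.93 and 6.52 log2 CPM in the latter. Singly, the relay markers TCF7L2, SLC17A6, CACNA1G, ZIC1 and CALB2 were higher in each left-titled library than in both right-titled ones. RORA, LEF1, LHX9 and LHX2 overlapped between the sides, and PRKCD was lower in each left-titled library. DUSP5 and SPRY4, 2 of the 9 beside 30.5% of all genes, had their highest level in Control-317. In this library the mean over relay markers was highest and that over striatal markers lowest. SPRED1, SPRY1 and SPRY2, 3 of the 9 beside 30% of all genes, had their lowest level in Control-317. The part of these cell types in the differences was not tested.

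**Figure D3:**
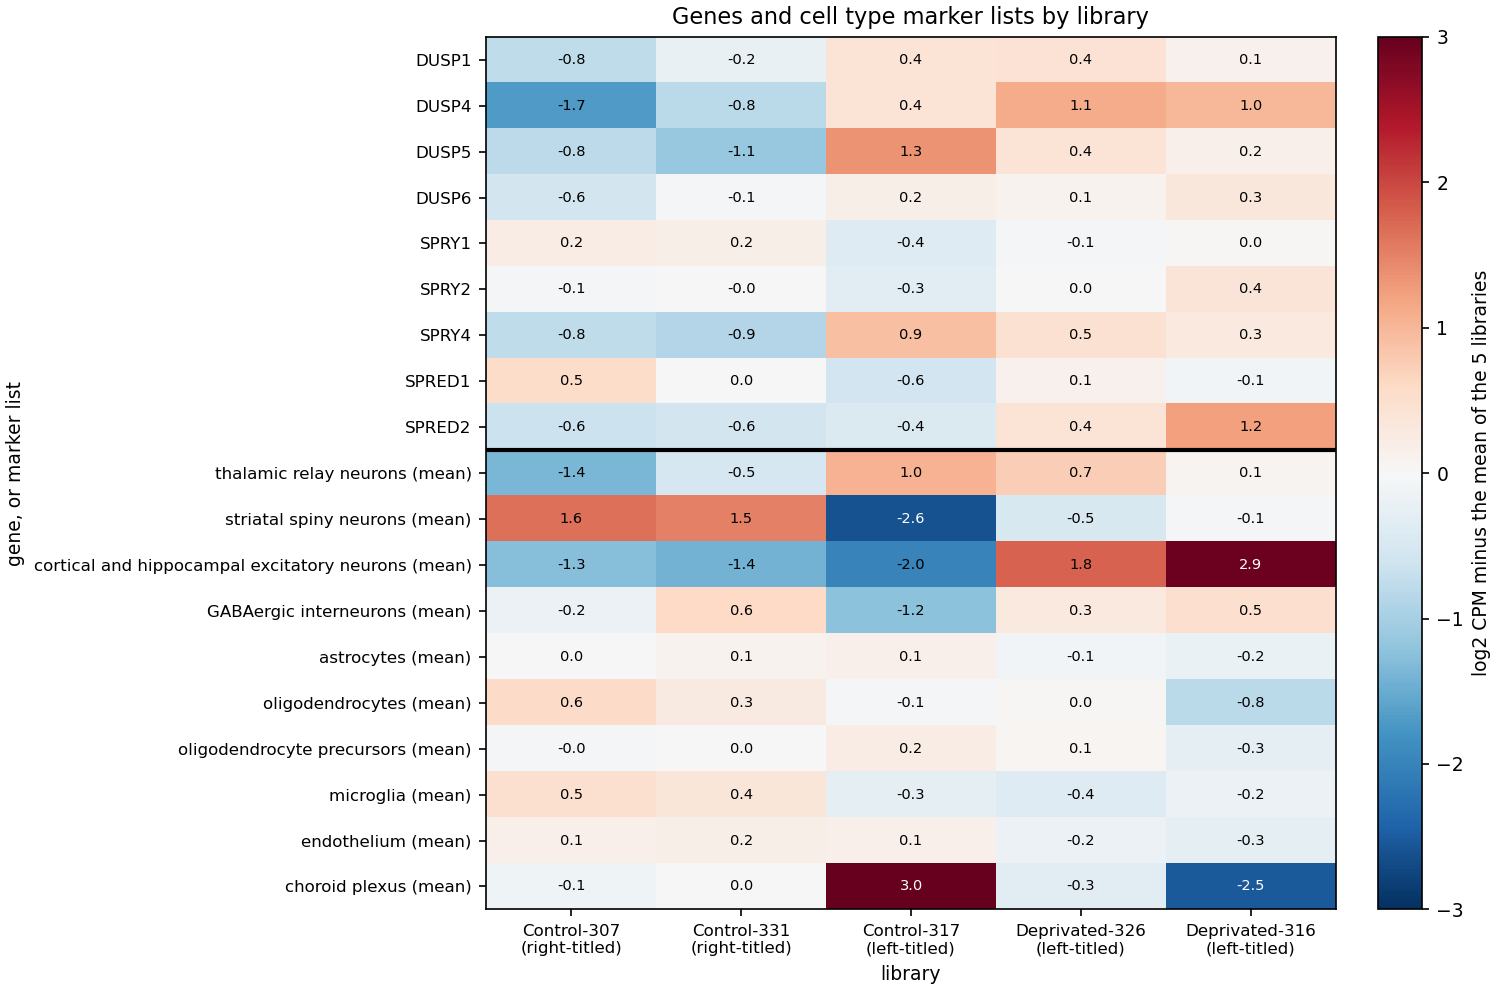
Log2 CPM of the 9 genes (above the line) and mean log2 CPM of 10 marker lists (below it) in each library, minus the mean of the 5 libraries, with the value printed in each cell and right-titled libraries first. DUSP4, DUSP5 and SPRY4 were below their own mean in both right-titled libraries and above it in the 3 left-titled ones. The same held for the mean over markers of thalamic relay neurons. SPRED2 was above its mean in the deprived libraries only.

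Among each other, the 9 genes formed pairs of like profile, by the root mean square difference of log2 CPM over the 5 libraries after each gene's own mean was taken off. The closest pairs were SPRY1 with SPRED1, at 0.21, SPRY1 with SPRY2, at 0.22, DUSP5 with SPRY4, at 0.24, and DUSP1 with DUSP6, at 0.24. The farthest pair was DUSP4 with SPRED1, at 1.33. No test was made of these distances.

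Among 13111 other genes the profile of DUSP4 was most like that of LOC102138641, annotated as like a regulatory subunit of cAMP-dependent protein kinase, with a difference of 0.06, of VSNL1, a neuronal calcium sensor, with 0.07, and of DPYSL3, a protein of growing axons, with 0.17. VSNL1 had 80.0, 141 and 316.6 CPM in Control-307, Control-331 and Control-317 and 531 and 510.2 CPM in the deprived libraries. DUSP5 was most like SLC2A6, SHISA6 and CLEC2L, with differences of 0.13, 0.13 and 0.14. SPRED2 was most like LOC102122952, annotated as like contactin-associated protein 3, with 0.08, and PIP4K2C, a lipid kinase, and RIMBP2, a protein of the presynaptic active zone, each with 0.09. RIMBP2 had 98.6, 91.3 and 104 CPM in the control libraries and 307.4 and 198 CPM in the deprived ones. With 5 libraries many genes can share a profile, and no more than likeness is described.

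Of the 16 transcripts, 14 passed the filter on low counts. DUSP1, DUSP4, DUSP5 and SPRED1 each had a single transcript in the table, and DUSP6 was 98.8% to 100% its variant X1. EdgeR's quasi-likelihood test called 0 of the 14, beside 0% of 33469 transcripts, and at an unadjusted p under 0.05 it gave 1, beside 6.41%. That transcript was SPRED2 variant X2, which made up 71.2% to 84.7% of the gene's counts. It had 15.7, 19.6 and 19.1 CPM in Control-307, Control-331 and Control-317 and 62.0 and 36.1 CPM in Deprivated-316 and Deprivated-326, and its log2 fold change was 1.44 (standard error 0.33, edgeR adjusted p = 0.557). DESeq2 called it alone of the 14 (adjusted p = 0.0364), beside 3.06% of the transcripts it tested. Variant X3 of SPRED2 had 6.35, 3.59 and 6.22 CPM in the control libraries and 17.5 and 6.47 CPM in the deprived ones, so that only Deprivated-316 stood well above the rest.

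For SPRY1 the make-up of its transcripts differed most in 1 library. Variant X1 held 18.5%, 17.7% and 10.9% of the gene's counts in Control-307, Control-331 and Control-317 and 20.5% in Deprivated-316, but 52.5% in Deprivated-326. In that library X1 had 8.22 CPM and X2 had 7.42 CPM, against 1.37 to 3.70 CPM and 11.5 to 16.3 CPM in the other libraries. The share in Deprivated-316 was only slightly above that of Control-307, the highest control library. In CPM, X1 of Deprivated-316 lay inside the control range, at 3.47 against 1.37 to 3.70. Between the groups the level of X1 differed by 1.05 on the log2 scale and did not pass edgeR's quasi-likelihood test (adjusted p = 0.956). The share itself was not tested. SPRY4 variant X2 held 18.4% to 34.7% of its gene, and SPRY2 variant X2 held 3.15% to 12.7%. Variants share most of their sequence, and their shares are estimates.

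**Figure D4:**
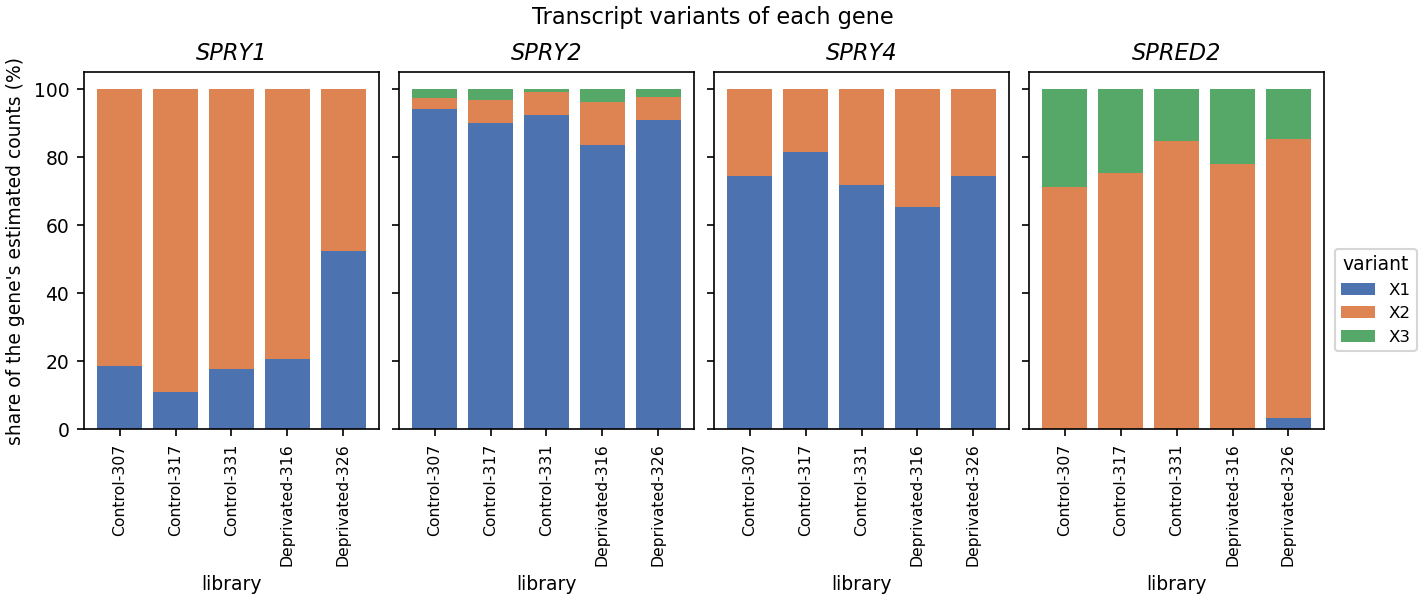
Share of each gene's estimated counts held by its transcript variants X1, X2 and X3, in percent, in each library, for SPRY1, SPRY2, SPRY4 and SPRED2. SPRY1 variant X1 held 52.5% in Deprivated-326 and 10.9% to 20.5% in the other libraries.

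The remaining phosphatases and Sprouty relatives went both ways. Of 8 listed, 7 were tested. The log2 fold change was above 0 for 5, beside 44.9% of all genes, and below 0 for 2, with a median of 0.56 beside -0.06 over all genes. DUSP8 and SPRED3 had log2 fold changes of 0.97 and 1.07. DUSP10 and DUSP16, which like DUSP8 act on JNK and p38, had -0.65 and -0.57. For these 4 the adjusted p of edgeR's quasi-likelihood test was 0.416 to 0.539. It called none of the 7 with all libraries, beside 0% of all genes, and none without Control-317, beside 10.1%. DESeq2 called none, beside 2.14%. With side as a covariate edgeR called 1, upward, beside 5.43% of all genes. After the exchange of Control-317 and Deprivated-316, 3 of the 7 were above 0, beside 49.1% of all genes, with a median of -0.11.

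Genes of the RAS-RAF-MEK-ERK cascade, on which the 9 genes act, were split evenly. Of 20 tested, 10 were above 0, beside 44.9% of all genes, and 10 below 0, with a median of 0.02. RASGRF2, an exchange factor that loads RAS when calcium rises, had 94.4, 53.8 and 29.3 CPM in Control-307, Control-331 and Control-317 and 393 and 231 CPM in the deprived libraries (log2 fold change 2.40 with a standard error of 0.53, edgeR adjusted p = 0.339). KSR2, a scaffold of RAF and MEK, and MAPK3, which encodes ERK1, had 0.93 and 0.63. NRAS had 77.4 to 91.8 CPM in the control libraries and 4.43 and 46.5 CPM in the deprived ones, and its log2 fold change was -1.77 (standard error 0.91, edgeR adjusted p = 0.587). None passed edgeR's quasi-likelihood test. DESeq2 called 1 of the 20 beside 2.14% of all genes, edgeR without Control-317 called 2 beside 10.1%, and edgeR with side as a covariate called 2 beside 5.43%, all upward.

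Of 8 RAS GTPase activating proteins, which switch RAS off, 7 were above 0, beside 44.9% of all genes, with a median of 0.68. NF1, the partner of the Spred proteins, had 188, 189 and 242 CPM in Control-307, Control-331 and Control-317 and 312 and 302 CPM in the deprived libraries, so that the groups did not overlap (log2 fold change 0.58 with a standard error of 0.21, edgeR adjusted p = 0.486). RASA3 and RASA2 had log2 fold changes of 1.14 and 0.78. EdgeR's quasi-likelihood test called none of the 8, DESeq2 called 2 beside 2.14% of all genes, edgeR without Control-317 called 2 beside 10.1%, and edgeR with side as a covariate called 2 beside 5.43%, all upward. With Control-317 and Deprivated-316 exchanged, 4 of the 8 were above 0, beside 49.1% of all genes.

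Of 11 JNK and p38 kinases and their activators 7 were above 0, beside 44.9% of all genes, with a median of 0.37. The p38 kinases MAPK13, MAPK12 and MAPK11 had log2 fold changes of 1.74, 1.18 and 0.70, and MAPK9, a JNK, had 0.71. MAPK13 had at most 25.2 CPM and MAPK12 at most 10.1 CPM. MAPK14, the remaining p38 kinase, had -0.17, with 52.7 to 105 CPM in control and 98.8 and 46.8 CPM in deprived libraries. It is named here after its values were seen. EdgeR's quasi-likelihood test called none. DESeq2 called 1 beside 2.14% of all genes and edgeR without Control-317 called 3 beside 10.1%, all upward. EdgeR with side as a covariate called none, beside 5.43%. Of 12 receptor tyrosine kinases tested 5 were above 0, beside 44.9% of all genes, with a median of -0.15. NTRK2 and NTRK3, the receptors of BDNF and neurotrophin-3, had 0.74 and 0.58, and the fibroblast growth factor receptors FGFR3 and FGFR2 had -0.88 and -0.40. None of them passed edgeR's quasi-likelihood test. DESeq2 called 1 upward and 1 downward, beside 2.14% of all genes in both directions. EdgeR without Control-317 called NTRK2 upward and FGFR3 downward, beside 10.1%. With side as a covariate edgeR called 2 downward, beside 5.43%. After the exchange of Control-317 and Deprivated-316, 9 of the 12 were above 0, beside 49.1% of all genes, with a median of 0.17.

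Of 12 genes known to be induced by ERK, 10 were tested and 7 were above 0, beside 44.9% of all genes, with a median of 0.22 beside -0.06; PHLDA1 was at 0 in every library. IER3, an early response gene, had 3.00, 3.92 and 5.92 CPM in the control libraries and 1.61 and 1.23 CPM in the deprived ones (log2 fold change -1.59 with a standard error of 0.53, edgeR adjusted p = 0.457). At these low levels its fold change rests on few counts. CCND1, cyclin D1, had 0.31, and IL17RD, an inhibitor of fibroblast growth factor signalling, had -0.37. EdgeR's quasi-likelihood test called none, beside 0% of all genes, and DESeq2 called none, beside 2.14%. With side as a covariate only 3 of the 10 were above 0, beside 49.8% of all genes, and the median turned to -0.23. EdgeR called none in that fit, beside 5.43%. The median was 0.06 without Control-307 and 0.10 without Control-331, beside -0.05 over all genes in both fits. Without Control-317 edgeR called 2, ETV5 and EPHA4, both upward, beside 10.1% of all genes, which are named here after their values were seen. ETV5 had 39.5, 44.2 and 109 CPM in Control-307, Control-331 and Control-317 and 101 and 86.9 CPM in the deprived libraries, the same order by side as SPRY4.

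Of 16 genes induced by neuronal activity, all tested, 14 were above 0, beside 44.9% of all genes, with a median of 1.47, among them NR4A2 with 3.56, FOSB with 2.58, FOS with 1.66 and JUN with 1.13. EdgeR's quasi-likelihood test called none, with 0.254 to 0.397 as adjusted p for these 4, DESeq2 called 3 beside 2.14% of all genes, edgeR without Control-317 called 6 beside 10.1% and edgeR with side as a covariate called 4 beside 5.43%, all upward. With Control-317 and Deprivated-316 exchanged 3 of the 16 were above 0, beside 49.1% of all genes, and the median was -0.50. FOS and FOSB had at most 3.36 CPM in the control libraries, so their fold changes rest on few counts. DUSP1 and DUSP6, at 0.40 and 0.34, had smaller log2 fold changes than NR4A2, FOSB, FOS and JUN, which were named for their small p. DUSP4 and SPRED2, at 1.50 and 1.43, lay between JUN and FOS. The 2 listed genes below 0 were BTG2 with -0.48 and ATF3 with -1.83. No test of these differences was made.

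**Figure D5:**
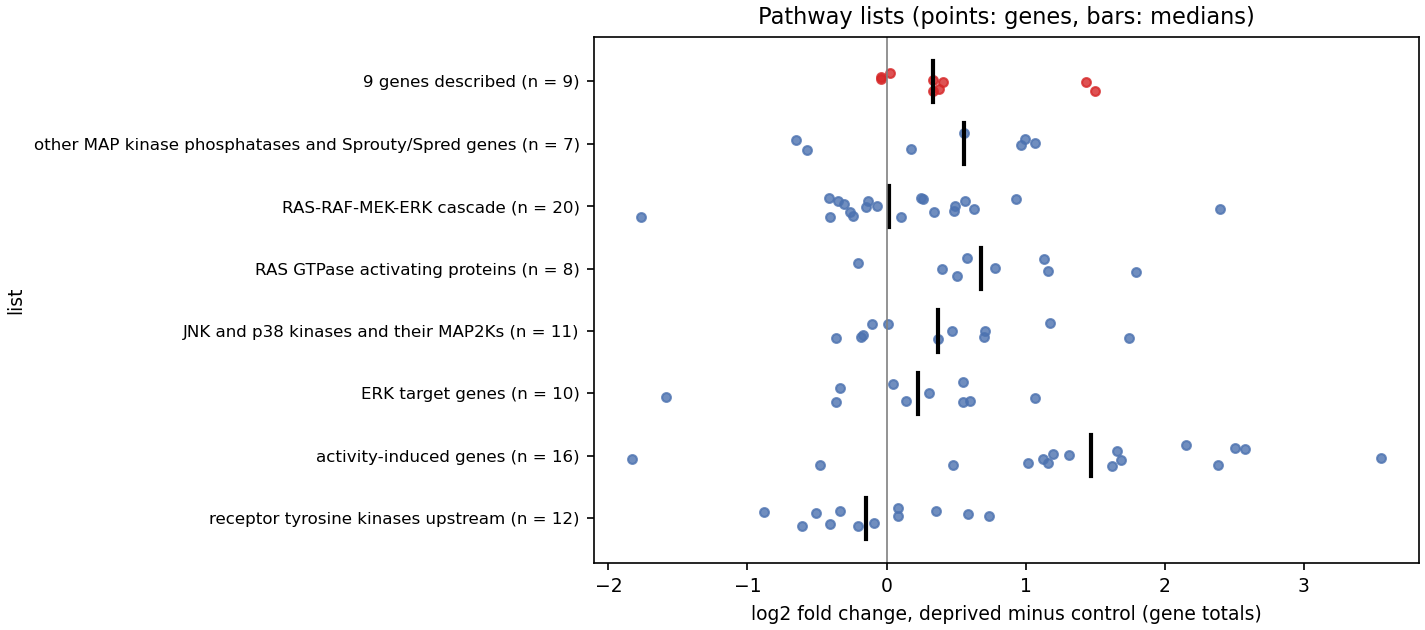
Log2 fold change (deprived minus control, gene totals) of the 9 genes and of each tested gene of 7 pathway lists, one point per gene with a bar at each median. The medians were 0.34 for the 9 genes, 1.47 for activity-induced genes, 0.68 for RAS GTPase activating proteins and -0.15 for receptor tyrosine kinases.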

How the data were processed

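RNA of 5 dLGN libraries had been prepared with oligo-dT beads. Reads were filtered with fastp 0.18.0 and quantified per RefSeq transcript with StringTie 1.3.4 on Macaca_fascicularis_5.0, as the paper's methods state; they name HISAT2 as aligner, and the submitters' processing notes list Bowtie2 2.2.8. The authors deposited estimated counts per transcript, not normalized, and FPKM per transcript, which the authors scaled to length and depth. Here both were summed per symbol, and counts were rounded. Reads carry no molecular identifiers, and strand is not given in the sources used here.

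Gene totals and transcripts were tested with edgeR 4.0.16 (quasi-likelihood, TMM, filterByExpr, R 4.3.3), with Benjamini-Hochberg adjustment over all genes or transcripts. The standard error is the log2 fold change over the root of F, and intervals use the fit's degrees of freedom. CPM use TMM totals, and log2 CPM a prior count of 2. With 3 libraries against 2, exact permutation of the labels has a smallest two-sided p of 0.2, so it was not used. P-values measure the spread between these animals.

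All 9 genes are named, and up to 4 genes of each list, those with the smallest p at a mean log2 CPM of at least 1; variants are named from 10% of a gene's counts. One gene that this rule names is not reported here. Marker lists of 10 cell types are summarised by their mean and sum. Genes and lists were chosen with earlier results of these data known. Alternatives were DESeq2 1.42.0, the exact test of edgeR, RLE size factors, log2(FPKM + 0.1) or log2(FPKM + 1) tested with limma 3.58.1, other filters, each library left out, and Control-317 and Deprivated-316 exchanged. Side as a covariate, DESeq2 under both of the last, and the comparison by side were added after seeing the data. The edgeR, DESeq2 and limma tests of 3 libraries against 2 were tested on simulated data. There DESeq2 and the exact test made more false calls than their threshold allows. The simulation took each gene's spread from edgeR and held no differences in cell type between libraries. No coordinates are given, since the annotation at hand is of another assembly.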

Additional observations from a re-analysis of the deposited data

How the results depend on the processing

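Of the 9 genes, edgeR's quasi-likelihood test called 0; the exact test called 1, DESeq2 1, DESeq2 with side as a covariate 1, and leaving out each library 0 to 3, the 3 without Control-317. Over all genes the counts were 0, 227 in the exact test, 328 in DESeq2, 1 in limma on log2(FPKM + 1), 0 to 1420 with a library left out (1420 without Control-317), 777 with side as a covariate, 1901 in DESeq2 with side as a covariate and 108 in DESeq2 with Control-317 and Deprivated-316 exchanged. At an unadjusted p under 0.05 edgeR's quasi-likelihood test gave 1397. DESeq2 called 1 of the transcripts of the 9 genes. Of the listed pathway genes edgeR called 0, beside 0% of all genes, and DESeq2 9, beside 2.14%. Fits with a library left out called 0 to 17 of them, the 17 without Control-317, beside 10.1% there. That with side as a covariate called 11, beside 5.43%. The number of genes tested is given above for each list. SPRED3 stands both among the Sprouty relatives and among the genes induced by ERK.

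Of 144 values of single genes under the alternatives, 116 kept direction and call, 6 passed the test in addition and 22 turned in direction. With side as a covariate DUSP1, DUSP5, SPRY1, SPRY4 and SPRED1 turned to -0.12, -1.08, 0.38, -0.53 and 0.61 in edgeR and to -0.11, -1.07, 0.39, -0.52 and 0.62 in DESeq2. With Control-317 and Deprivated-316 exchanged SPRY2 and SPRED2 turned to -0.27 and -0.25 in edgeR and to -0.28 and -0.27 in DESeq2. With a library left out DUSP1 ran from 0.16 to 0.76, DUSP4 from 1.13 to 2.26, DUSP6 from 0.16 to 0.51, SPRY2 from 0.13 to 0.53, SPRY4 from 0.08 to 1.21 and SPRED2 from 0.95 to 1.81, while DUSP5 ran from -0.37 to 1.27, SPRY1 from -0.21 to 0.0697 and SPRED1 from -0.27 to 0.28. On mean FPKM in place of CPM the log2 ratio of DUSP5 was -0.0301. The cause of these turns was not tested. No paired analysis was possible because the groups share no replicate numbers. Depth limits DUSP5 most, with 36 to 252 counts per library, against 1551 to 3121 for SPRED1.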

Other observations

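The 9 genes together had 509, 436 and 462 CPM in Control-307, Control-331 and Control-317 and 586 and 577 CPM in Deprivated-316 and Deprivated-326. Per length, SPRY4 had 0.569 and 0.540 times the level of SPRY1 in Control-307 and Control-331, but 2.81 times in Control-317 and 1.34 and 1.70 times in the deprived libraries. DUSP4, in the nucleus, had 0.124, 0.164 and 0.330 times the level per length of DUSP6, in the cytoplasm, in Control-307, Control-331 and Control-317, and 0.441 and 0.561 times in the deprived libraries. These ratios were computed after the values had been seen and were not tested.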
